A study of Arabidopsis thaliana with 9 samples.

Results

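The loci described here are the annotated genes and pseudogenes around the centromeres of Arabidopsis thaliana chromosomes 1, 3 and 5 that yielded small RNAs. They were chosen by their locus identifiers, AT1G33 to AT1G47, AT3G29 to AT3G44 and AT5G27 to AT5G37, and by a level of at least 10 normalized reads in at least 3 of the 9 libraries. Of the 37336 loci in the deposited table, 3665 carried such an identifier and 1630 of these reached the level, 454 of 1175 on chromosome 1, 635 of 1231 on chromosome 3 and 541 of 1259 on chromosome 5. In the TAIR10.1 annotation the members spanned 5.73 Mb of chromosome 1, from AT1G33000 to AT1G47960, 5.43 Mb of chromosome 3, from AT3G29032 to AT3G44980, and 5.52 Mb of chromosome 5, from AT5G27160 to AT5G37875. Centromere positions were not used, so the name pericentromeric rests on the identifiers and on the mix of loci given below.

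Sequencing took the small RNAs, 17 to 30 nt long, in total RNA of plants grown on soil with 16 h of light per day, with an age of 25 days in one label and 26 days in another. Libraries were made in sets of 3 from Col-0 (LUC) plants, prors1 (LUC) plants and rls6 plants. Col-0 is a widely used laboratory accession of the species, and PRORS1 encodes a prolyl-tRNA synthetase of chloroplasts and mitochondria. The labels say neither what LUC marks, nor whether rls6 carries it, nor which change rls6 holds, and the source label instead calls the prors1 (LUC) and rls6 plants rbp-ko-1 and rbp-ko-2. Small RNA reads over a gene do not measure its messenger, so the genotypes were not checked here. The stated aim was to set small RNA levels of both mutants against those of Col-0 (LUC). The labels do not tie the libraries of a genotype to separate plants, and p-values therefore measure only the spread between these libraries, which may be technical. In whole plants, fewer cells of a type and less RNA per cell cannot be told apart.

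Pericentromeric DNA of Arabidopsis is rich in transposons and their remains, poor in active genes and heavily methylated. Plants make small interfering RNAs from such DNA with RNA polymerase IV, RNA-dependent RNA polymerase RDR2 and the Dicer-like protein DCL3. Argonaute proteins carry these RNAs to matching transcripts of polymerase V, where DRM2 methylates the DNA, a pathway known as RNA-directed DNA methylation.

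The first 240 bases of 6 pseudogenes are shown because they carry the patterns described below. AT3G43832 (chr3:15682635-15682874, minus strand), AT1G47880 (chr1:17640046-17640285, plus strand) and AT1G43897 (chr1:16650565-16650804, minus strand) rose several-fold in rls6. AT5G28535 (chr5:10534818-10535057, plus strand) moved in opposite directions in the mutants, and AT3G43730 (chr3:15633913-15634152, plus strand) held the most reads. AT5G35915 (chr5:14044866-14045105, plus strand) is an example of repeated sequence. All are read on the gene's strand from the RefSeq genome, TAIR10.1, and capitals mark bases that no 24-base window found once in the genome covers. In AT5G35915, 152 of the 240 bases were in capitals and in the other 5 loci 0 were, so reads from those stretches of AT5G35915 have other possible places of origin.
AT3G43832: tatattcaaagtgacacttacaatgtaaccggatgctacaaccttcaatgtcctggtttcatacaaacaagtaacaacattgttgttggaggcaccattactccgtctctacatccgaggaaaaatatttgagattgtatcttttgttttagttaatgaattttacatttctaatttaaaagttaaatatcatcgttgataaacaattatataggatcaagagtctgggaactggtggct
AT1G47880: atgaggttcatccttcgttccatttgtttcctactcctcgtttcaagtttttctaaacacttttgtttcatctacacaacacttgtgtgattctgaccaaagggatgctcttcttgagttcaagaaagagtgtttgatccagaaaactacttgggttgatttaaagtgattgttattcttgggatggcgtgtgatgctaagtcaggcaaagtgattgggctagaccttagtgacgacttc
AT1G43897: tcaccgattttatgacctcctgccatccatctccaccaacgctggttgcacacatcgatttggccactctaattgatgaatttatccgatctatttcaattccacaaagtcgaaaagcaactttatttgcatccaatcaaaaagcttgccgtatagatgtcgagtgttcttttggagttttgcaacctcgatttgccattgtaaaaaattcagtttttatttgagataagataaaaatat
AT5G28535: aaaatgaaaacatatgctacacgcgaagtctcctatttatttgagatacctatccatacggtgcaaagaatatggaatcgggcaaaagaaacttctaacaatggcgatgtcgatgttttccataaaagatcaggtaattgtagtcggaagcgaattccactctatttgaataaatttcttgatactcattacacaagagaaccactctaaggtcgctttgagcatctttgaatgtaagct
AT3G43730: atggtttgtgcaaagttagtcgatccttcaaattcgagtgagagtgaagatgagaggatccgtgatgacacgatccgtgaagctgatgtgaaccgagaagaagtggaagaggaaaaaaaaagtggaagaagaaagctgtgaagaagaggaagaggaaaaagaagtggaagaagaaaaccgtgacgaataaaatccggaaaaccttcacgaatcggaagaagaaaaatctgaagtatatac
AT5G35915: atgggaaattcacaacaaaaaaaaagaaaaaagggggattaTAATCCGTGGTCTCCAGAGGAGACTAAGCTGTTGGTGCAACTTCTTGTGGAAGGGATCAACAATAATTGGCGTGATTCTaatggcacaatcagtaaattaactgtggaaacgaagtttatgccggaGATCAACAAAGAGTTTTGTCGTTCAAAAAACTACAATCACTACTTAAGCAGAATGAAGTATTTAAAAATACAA

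Pseudogenes made up most of the members. The annotation classed 1257 as pseudogenes and 88 as transcribed pseudogenes, together 82.5%, against 47.9% of the 2996 other nuclear loci with enough reads to be tested. Those other loci, here and below, include the loci around the centromeres of the remaining chromosomes. Another 280 were protein-coding, 3 were non-coding RNA genes, 1 a tRNA gene and 1 a long non-coding RNA gene. The annotation describes 1254 members only as coding for an uncharacterized protein, and its text holds a word for a transposon or a transposon protein for 27. By family, 12 texts named a reverse transcriptase or a non-LTR element, 5 a sadhu element, 3 a CACTA or Spm element, 2 a hAT element and 1 a copia element, and no text named gypsy, mutator or helitron elements.

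Members were long and partly repeated. Their median length was 2305 bases, against 1798.5 bases for the other tested nuclear loci, and their median GC content was 41.1% against 39.7%. A median of 76.8% of a member's 24-base windows occurred once in the genome, against 91.3% for the other loci, and 381 members were below 50%. How the authors' counting treated reads with several places of origin is not given in the sources used here, and neither is the use of strand. In 57 members another annotated gene overlapped, and the reads of both cannot be told apart there.

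Levels were low and spread over a wide range. The mean of a member over the 9 libraries ranged from 7.19 to 2905 normalized reads with a median of 32.6, and a normalized read is a read divided by the library's size factor. The median of the other tested nuclear loci was nearly the same, 32.8. Per kilobase of length the median was 16.0 normalized reads, against 21.6 for those loci. Length here is the whole annotated span, introns included. The 10 strongest members took 10.9% of the summed reads and the strongest 163 took 44.9%. Within a genotype the median coefficient of variation was 14.5% for Col-0 (LUC), 14.3% for prors1 (LUC) and 13.8% for rls6. At the edge of the level rule, the third-highest library value was 10.0 for the members AT3G30210 and AT5G34855, and 9.91 for AT3G33100 and AT5G34895, which were left out. Of the members, 1257 reached 10 normalized reads in all 9 libraries, and 2 reached it in 1 genotype only, AT3G42160 in rls6 and AT1G41723 in Col-0 (LUC).

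Summed over the members, Col-0 (LUC) libraries held 106489, 104636 and 105323 normalized reads, prors1 (LUC) libraries 105499, 105641 and 106119, and rls6 libraries 108614, 106931 and 107564. The rls6 libraries lay above all others, by a small step, while those of prors1 (LUC) fell inside the range of Col-0 (LUC). The size factors rest in part on these same loci, so the sums say little about the total. Shares among the members do not depend on a size factor. Chromosome 5 took 32.5%, 32.7% and 32.6% of the member reads in the Col-0 (LUC) libraries, 31.6%, 31.9% and 31.5% in those of prors1 (LUC) and 31.8%, 31.9% and 32.0% in those of rls6. Both mutants thus lay below Col-0 (LUC) with no overlap. The chromosome 1 share was 24.5%, 24.9% and 24.6% in Col-0 (LUC) and 25.1%, 25.1% and 25.2% in rls6, without overlap, and 24.6%, 24.9% and 24.8% in prors1 (LUC), which overlapped with Col-0 (LUC). The chromosome 3 share was 43.0%, 42.4% and 42.8% in the Col-0 (LUC) libraries, 43.8%, 43.2% and 43.7% in those of prors1 (LUC) and 43.1%, 43.0% and 42.8% in those of rls6. It was higher in prors1 (LUC) than in Col-0 (LUC) without overlap, and rls6 overlapped with Col-0 (LUC). The 3 shares add up to the whole, so a lower share of one chromosome goes with a higher share of another.

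**Figure D1:**
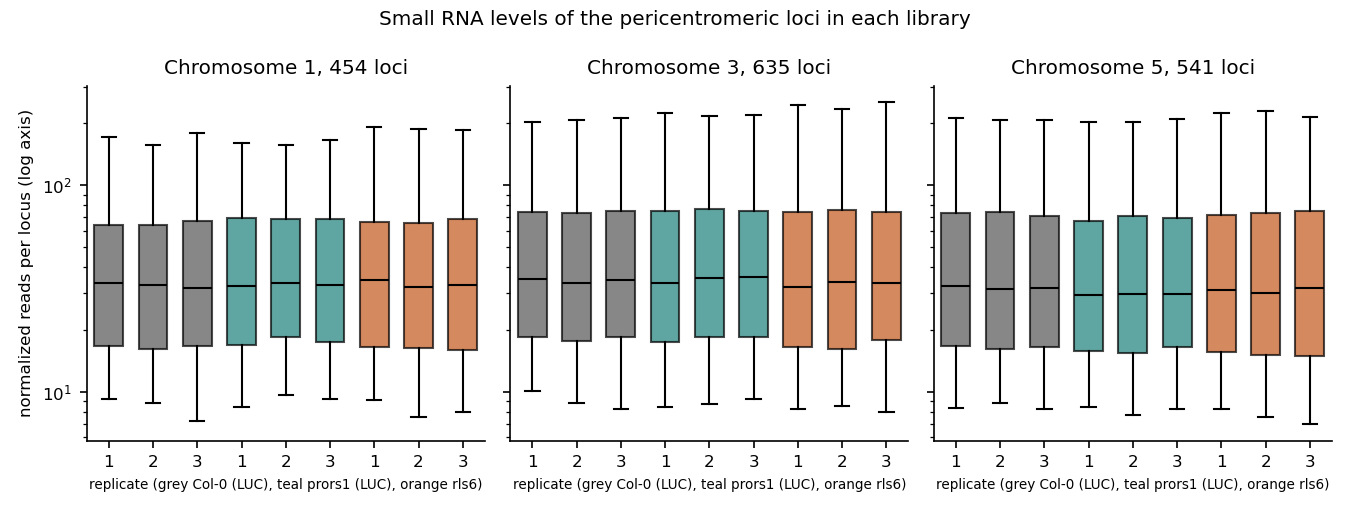
Normalized reads per locus (log axis) in each of the 9 libraries, for the 454, 635 and 541 members of chromosomes 1, 3 and 5. Boxes span the quartiles with the median as a line, whiskers run from the 5th to the 95th percentile, and the boxes of the 3 genotypes lie at nearly the same height on each chromosome.

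The share of reads held by each kind of locus differed between the genotypes. Pseudogenes took 75.9%, 75.1% and 76.0% of the member reads in the Col-0 (LUC) libraries, 74.8%, 74.5% and 74.6% in those of prors1 (LUC) and 72.8%, 72.1% and 72.2% in those of rls6. The 3 genotypes did not overlap, and rls6 was lowest. Protein-coding members took 18.6%, 19.2% and 18.5% in the Col-0 (LUC) libraries, 19.5%, 19.7% and 19.7% in those of prors1 (LUC) and 21.01%, 21.5% and 21.5% in those of rls6, again without overlap and with rls6 highest. One locus, AT3G44580, holds a good part of these reads, and without it the protein-coding shares were 16.8%, 17.6% and 16.9%, then 17.6%, 17.8% and 17.7%, then 18.9%, 19.5% and 19.5%. Without AT3G44580, rls6 still lay above the other genotypes, and the values of prors1 (LUC) and Col-0 (LUC) all but touched. Transcribed pseudogenes took 4.91%, 5.21% and 4.78% in the Col-0 (LUC) libraries, 5.04%, 5.32% and 5.03% in those of prors1 (LUC) and 5.71%, 5.76% and 5.70% in those of rls6, so that rls6 stood above both.

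**Figure D2:**
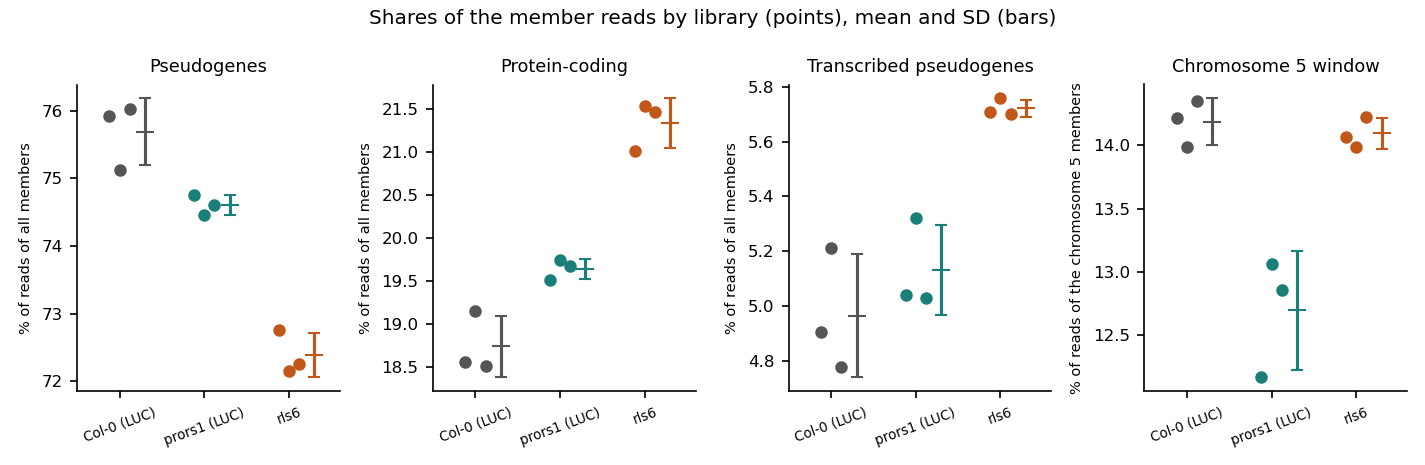
Share of the member reads taken by pseudogenes, protein-coding loci and transcribed pseudogenes, and share of the chromosome 5 member reads taken by a window from 10.5 to 11 Mb, in percent, by library (points) with the mean and SD of the 3 libraries (bars). The axes do not start at 0; rls6 is lowest for pseudogenes, at 72.1% to 72.8%, and prors1 (LUC) is lowest for the window, at 12.2% to 13.1%.

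Single loci were compared with limma, fitted on log2(normalized reads + 1) of all 4766 loci with enough reads, and a locus rose or fell where the Benjamini-Hochberg adjusted p over these loci was below 0.05. On this scale the change of a locus with few reads is understated. The comparisons of the mutants with Col-0 (LUC) share its 3 libraries. In prors1 (LUC) against Col-0 (LUC), 43 members rose and 62 fell, 6.44% of the members against a background of 14.4% of all tested loci (7.74% higher and 6.63% lower). Their median log2 fold change was -0.01, and 0.01 over all tested loci. In rls6 against Col-0 (LUC), 77 rose and 46 fell, 7.55% against a background of 17.6% (12.7% higher and 4.95% lower), with a median of -0.07 and -0.02 over all tested loci. In rls6 against prors1 (LUC), 111 rose and 63 fell, 10.7% against 16.8% (11.7% higher and 5.16% lower), with a median of -0.06 and -0.02 over all tested loci.

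The called share of the members was below the background in each comparison, and most shifts were small. Between 97.1% and 99.2% of members lay within 2-fold, depending on the comparison. Changes of at least 2-fold on the log2 scale, past the threshold, were seen in 5 members that rose and 7 that fell in prors1 (LUC), and in 37 that rose and 7 that fell in rls6 against Col-0 (LUC). In rls6 against prors1 (LUC) there were 37 and 8. Over all tested loci, 2.58% rose and 2.37% fell by as much in prors1 (LUC), 6.82% and 1.26% in rls6, and 5.81% and 1.03% in rls6 against prors1 (LUC), so that more 2-fold rises than falls in rls6 was a feature of the whole table. Without Col-0 (LUC) replicate 1, 8 members rose by as much in prors1 (LUC), without rls6 replicate 3, 4 fell in rls6, and without prors1 (LUC) replicate 1 or 3, 4 fell in rls6 against prors1 (LUC).

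The counts depended on single libraries and on the scaling. Without Col-0 (LUC) replicate 3, 24 members rose and 26 fell in prors1 (LUC), and in rls6 70 rose and 22 fell. Without prors1 (LUC) replicate 2, 40 fell, and without prors1 (LUC) replicate 3, 26 rose in prors1 (LUC). Without Col-0 (LUC) replicate 1, 28 fell in rls6, and without rls6 replicate 1, 2 or 3, 28, 28 and 29 fell. In rls6 against prors1 (LUC), 39 fell without prors1 (LUC) replicate 3 and 40 without rls6 replicate 3. With DESeq2 on recovered reads, 13 rose and 17 fell in prors1 (LUC), 61 and 12 in rls6 against Col-0 (LUC), and 76 and 20 in rls6 against prors1 (LUC). With upper-quartile factors over the tested loci, which moved the median of all tested loci by -0.09 in rls6, 67 rose and 125 fell there, so the direction of the majority is not fixed. With total nuclear reads as the scale, which moved that median by -0.10 in rls6 and -0.11 in prors1 (LUC), 59 rose and 87 fell in rls6 and 11 rose and 90 fell in prors1 (LUC). With upper-quartile factors over all genes, which moved that median by 0.19 in prors1 (LUC) and 0.28 in rls6, 109 rose and 12 fell, and 226 rose and 9 fell.

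In rls6 the share of members that rose was near the pooled background of 12.7% among protein-coding loci, transcribed pseudogenes, short loci and loci far from the middle of an interval. It was below that background among pseudogenes, long loci and loci near the middle. Within each of these classes and length groups it was below the share of the other tested nuclear loci of the same kind. Of all calls over the table, 71.9% were rises. Against Col-0 (LUC), 34 of the 280 protein-coding members rose, 12.1%, and 6 fell, 2.14%, with a median log2 fold change of 0.04. Of the 1197 other nuclear protein-coding loci tested, 21.3% rose and 5.60% fell, with a median of 0.13. Of the 88 transcribed pseudogenes among the members 12 rose and 2 fell, 13.6% and 2.27%, and of the 1257 pseudogenes 31 rose and 38 fell, 2.47% and 3.02%, with a median of -0.09. Of the 1289 pseudogenes among the other tested nuclear loci, 4.42% rose and 6.83% fell. Under the other scalings the protein-coding members that rose outnumbered those that fell, by 31 to 14 with upper-quartile factors over tested loci, 29 to 10 with total nuclear reads and 74 to 4 with upper-quartile factors over all genes. With 1 library left out, 29 to 35 of them rose and 3 to 8 fell. The split of the pseudogenes turned, from 25 that rose and 106 that fell with upper-quartile factors over tested loci to 132 and 4 with those over all genes. Leaving out Col-0 (LUC) replicate 1 or 3, or rls6 replicate 1, 2 or 3, also turned that split, to 30 and 22, 27 and 16, 27 and 23, 23 and 22, and 28 and 22.

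By length, 32 of the 285 members below 1000 bases rose in rls6 against Col-0 (LUC), 11.2%, and 1 fell, 0.351%, with a median of 0.05. Among the 352 members of 4000 bases or more, 8 rose and 17 fell, 2.27% and 4.83%, with a median of -0.10. The other tested nuclear loci differed with length too, since 24.4% of the 913 short ones rose and 3.61% fell, while 5.89% of the 509 long ones rose and 10.2% fell. The split of the short members held under every scaling tried, with 26 and 7 as the least uneven, and 25 to 33 rose and 0 to 5 fell with 1 library left out, whereas the long members split 44 and 1 with upper-quartile factors over all genes. In the long members, leaving out Col-0 (LUC) replicate 1 or 3, or rls6 replicate 1, 2 or 3, gave 7, 6, 8, 8 and 10 that fell. Against prors1 (LUC), 42 of the short members rose and 4 fell in rls6. With 1 library left out, 29 to 44 rose and 2 to 5 fell. The 42 rises were 14.7% of the short members, against 11.7% of all tested loci and 24.3% of the other short nuclear loci. Of the long members 11 rose and 31 fell. The 31 falls were 8.81%, against 5.16% of all tested loci and 10.02% of the other long nuclear loci. Both shares were thus below those of other nuclear loci of like length. The 31 falls became 18 to 22 when a prors1 (LUC) or rls6 library was left out.

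By position, 5 of the 644 members within 1 Mb of the middle of an interval rose in rls6 against Col-0 (LUC) and 17 fell, 0.776% and 2.64%, with a median of -0.10. Of the 693 members between 1 and 2 Mb, 36 rose and 23 fell, 5.19% and 3.32%. Of the 293 members beyond 2 Mb, 36 rose and 6 fell, 12.3% and 2.05%, with a median of 0.03. The outer loci thus rose at a share near the background of 12.7% and those near the middle at a lower one. All 3 chromosomes had more rises than falls beyond 2 Mb, with 17 and 2 on chromosome 1, 11 and 2 on chromosome 3 and 8 and 2 on chromosome 5, and the least uneven of these splits under any scaling was 5 and 4, on chromosome 5 with total nuclear reads. Near the middle the split was 52 and 3 with upper-quartile factors over all genes, and between 1 and 2 Mb it was 30 and 59 with those over tested loci, so only the outer loci kept their direction in every scaling tried, with 33 and 17 as the least uneven. The 17 falls near the middle became 11 without Col-0 (LUC) replicate 3, while leaving out rls6 replicate 3 gave 8. The 23 falls between 1 and 2 Mb became 13 and 10 without replicates 1 and 3 of Col-0 (LUC), 9 and 10 without replicates 1 and 2 of rls6, and 37 with the replicate number as a block. Beyond 2 Mb 32 to 41 rose and 1 to 8 fell with 1 library left out. In prors1 (LUC) against Col-0 (LUC) the members beyond 2 Mb split 12 and 10, which became 8 and 4 without Col-0 (LUC) replicate 3 and 19 and 9 without Col-0 (LUC) replicate 2. Length, class and distance were not separated from each other, and their parts in the pattern were not tested.

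**Figure D3:**
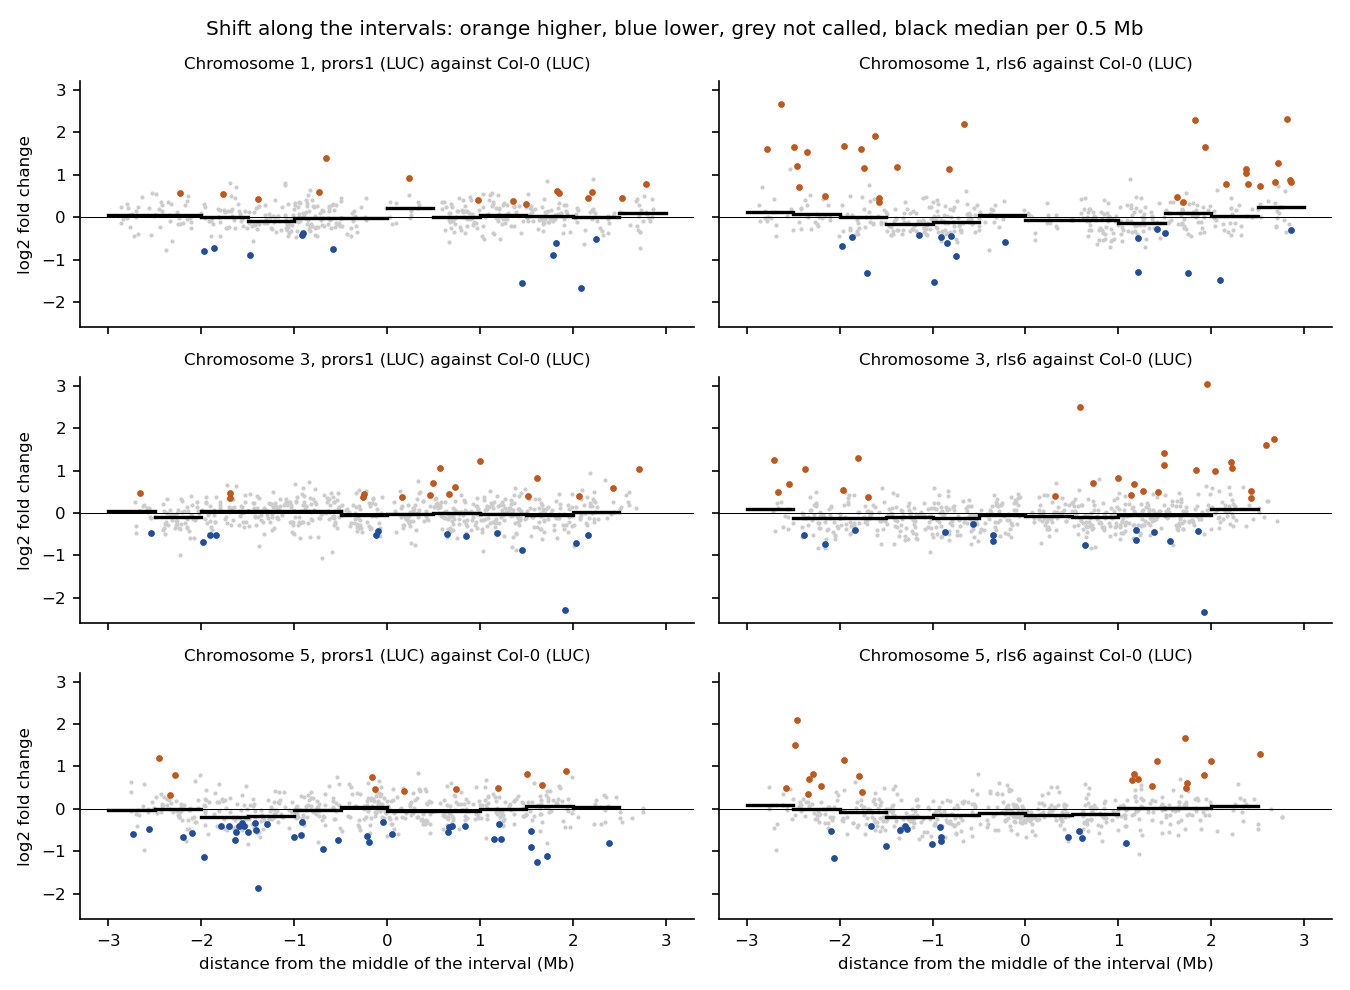
Log2 fold change of each member against its distance in Mb from the middle of its interval, by chromosome (rows), for prors1 (LUC) and rls6 against Col-0 (LUC) (columns), which share the Col-0 (LUC) libraries. Orange points rose, blue points fell, grey points were not called and black steps are medians of 0.5 Mb; the orange points of rls6 sit mostly toward the ends, with 36 of 293 members beyond 2 Mb (12.3%) and 5 of 644 within 1 Mb (0.776%), against 12.7% of all tested loci.

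The largest gain was that of a locus on chromosome 3 in rls6. AT3G43832, a transcribed pseudogene of a DUF239 peptidase gene (chr3:15682293-15682874), held 73.6, 72.3 and 69.7 normalized reads in the Col-0 (LUC) libraries, 81.0, 86.7 and 77.9 in those of prors1 (LUC) and 624, 557 and 608 in those of rls6. The rls6 libraries stood far above all others, 8.30-fold over Col-0 (LUC) by the means (log2 fold change 3.03 ± 0.11 SE, limma adjusted p = 8.44e-16), and prors1 (LUC) was not called (adjusted p = 0.288). AT1G33607, which encodes a defensin-like protein of a family of small secreted peptides (chr1:12186941-12187423), held 19.2, 16.1 and 11.3 in the Col-0 (LUC) libraries, 19.99, 26.98 and 18.5 in those of prors1 (LUC) and 105, 100.8 and 99.1 in those of rls6. There too rls6 did not overlap with the others (2.67 ± 0.21 against Col-0 (LUC), limma adjusted p = 1.01e-09).

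AT1G47880, a transcribed pseudogene of a receptor-like protein gene (chr1:17640046-17641148), held 24.3, 23.3 and 23.6 in the Col-0 (LUC) libraries, 13.7, 29.9 and 30.8 in those of prors1 (LUC) and 113, 131 and 121 in those of rls6. Receptor-like proteins sit in the cell membrane, and many act in defence or development. The rls6 libraries were higher without overlap (2.31 ± 0.22, limma adjusted p = 2.99e-08), while those of prors1 (LUC) lay on both sides of Col-0 (LUC). AT3G44935, annotated as a pentatricopeptide repeat protein gene of a family that binds organellar RNA (chr3:16409003-16409610), held 142, 117 and 143 in the Col-0 (LUC) libraries, 159, 128 and 148 in those of prors1 (LUC) and 454, 422 and 487 in those of rls6. It rose in rls6 by 1.75 ± 0.11 (limma adjusted p = 3.79e-11) and overlapped between the other 2 genotypes. Each of these 4 loci rose in rls6 against prors1 (LUC) too, and none of the 8 rises lost its call under any alternative.

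A few members rose in both mutants. AT1G43897, a pseudogene with no described parent (chr1:16650295-16650804), held 34.3, 38.6 and 28.7 in the Col-0 (LUC) libraries, 49.5, 48.2 and 59.5 in those of prors1 (LUC) and 173, 163.1 and 170.5 in those of rls6. The genotypes formed 3 separate steps, with 0.62 ± 0.15 in prors1 (LUC) (limma adjusted p = 0.00516, not called with DESeq2) and 2.29 ± 0.15 in rls6 (adjusted p = 3.34e-11). AT5G27845, also a pseudogene (chr5:9868348-9871836), held 12.5, 8.84 and 6.15 in the Col-0 (LUC) libraries, 19.99, 25.1 and 20.5 in those of prors1 (LUC) and 38.5, 36.8 and 49.6 in those of rls6. The values again lay in 3 separate steps. The Col-0 (LUC) libraries alone did not bring AT5G27845 to the level rule, and mutant libraries were needed. That leans toward higher values in the mutants. Its log2 fold changes, 2.10 ± 0.26 for rls6 and 1.21 ± 0.26 for prors1 (LUC), are therefore a description. NIA2 (AT1G37130, chr1:14158452-14161938), the major nitrate reductase gene, held 3.34, 3.21 and 2.05 in the Col-0 (LUC) libraries, 13.7, 10.6 and 5.13 in those of prors1 (LUC) and 14.7, 13.2 and 22.8 in those of rls6. Col-0 (LUC) lay below both mutants, which overlapped with each other. NIA2 met the level rule only through mutant libraries, which leans toward higher values there. Its log2 fold changes against Col-0 (LUC), 2.19 in rls6 and 1.41 in prors1 (LUC), are therefore a description. The call in prors1 (LUC) was lost with DESeq2, and also without replicate 3 of Col-0 (LUC) or replicate 1 or 2 of prors1 (LUC).

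Gains in prors1 (LUC) without a call in rls6 included AT3G44980, an uncharacterized protein-coding locus (chr3:16441023-16442098). It held 98.7, 103 and 93.3 in the Col-0 (LUC) libraries, 186, 213 and 210 in those of prors1 (LUC) and 92.5, 86.7 and 78.3 in those of rls6. The prors1 (LUC) libraries were higher than all others (1.04 ± 0.12 against Col-0 (LUC), limma adjusted p = 7.27e-07), and the difference between the mutants passed its own test, with rls6 lower by -1.23 ± 0.12 (adjusted p = 2.66e-08). AT3G42646, a transcribed pseudogene of a lactoylglutathione lyase gene, held 5.02, 7.23 and 7.17 in the Col-0 (LUC) libraries, 15.8, 15.4 and 17.4 in those of prors1 (LUC) and 10.99, 10.4 and 6.94 in those of rls6. AT3G42646 too met the level rule only through mutant libraries, so its log2 fold change of 1.22 in prors1 (LUC) is a description. That rise was not called with DESeq2, and the difference between the mutants was not called (limma adjusted p = 0.121).

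The largest losses by log2 fold change included loci that fell in both mutants. AT3G43750, which encodes a RING/U-box protein of a class that includes ubiquitin ligases (chr3:15646460-15647566), held 18.4, 36.2 and 21.5 in the Col-0 (LUC) libraries, 10.52, 2.89 and 2.05 in those of prors1 (LUC) and 6.41, 1.88 and 4.96 in those of rls6. Both mutants lay below Col-0 (LUC). AT3G43750 met the level rule only through its Col-0 (LUC) libraries, which leans toward lower values in the mutants. Its log2 fold changes, -2.30 in prors1 (LUC) and -2.33 in rls6, are therefore a description. SIAR1 (AT1G44800, chr1:16913994-16917053), the gene of an amino acid transporter, held 17.6, 20.9 and 29.7 in the Col-0 (LUC) libraries, 11.6, 6.75 and 3.08 in those of prors1 (LUC) and 9.16, 10.4 and 3.96 in those of rls6. Both mutants were again below Col-0 (LUC). SIAR1 too met the level rule only with its Col-0 (LUC) libraries, which leans toward lower values in the mutants. Its log2 fold changes, -1.66 in prors1 (LUC) and -1.48 in rls6, are therefore a description. The call in rls6 was lost without Col-0 (LUC) replicate 3 or rls6 replicate 3. AT1G36622, an uncharacterized protein-coding locus that overlaps AT1G36623 (chr1:13835620-13836954), held 41.0, 26.5 and 37.9 in the Col-0 (LUC) libraries, 27.4, 18.3 and 29.7 in those of prors1 (LUC) and 10.99, 9.42 and 13.9 in those of rls6. It fell in rls6 without overlap (-1.53 ± 0.25, limma adjusted p = 7.8e-05), and the reads may belong to either gene.

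Losses in prors1 (LUC) with no call in rls6 against Col-0 (LUC) included AT5G28910, annotated as an alpha-(1,6)-fucosyltransferase (chr5:10930539-10933188). It held 42.6, 32.1 and 68.7 in the Col-0 (LUC) libraries, 14.7, 10.6 and 10.3 in those of prors1 (LUC) and 39.4, 30.2 and 43.6 in those of rls6. The prors1 (LUC) libraries were lowest (-1.87 ± 0.25, limma adjusted p = 1.07e-05), rls6 overlapped with Col-0 (LUC), and the mutants differed by 1.59 ± 0.25 with rls6 higher (adjusted p = 5.53e-05). AT5G35760, a beta-galactosidase-related gene (chr5:13934108-13935088), held 24.3, 24.9 and 29.7 in the Col-0 (LUC) libraries, 11.6, 7.71 and 12.3 in those of prors1 (LUC) and 23.8, 21.7 and 31.7 in those of rls6. It fell by 1.26 on the log2 scale in prors1 (LUC) (limma adjusted p = 0.00119), and rls6 was higher than prors1 (LUC) by 1.22 ± 0.25 (adjusted p = 0.00121).

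Other members among the largest changes are given by fold change, a choice made after their values were seen. AT3G42160, a pectin lyase-like gene, held 2.51 to 7.23 normalized reads in Col-0 (LUC), 3.16 to 6.15 in prors1 (LUC) and 22.0 to 34.9 in rls6. It met the level rule only through its rls6 libraries and so had to be higher there, and its log2 fold change of 2.50 against Col-0 (LUC) is a description. The pseudogene AT1G35663 rose in rls6 by 1.92 and did not lose its call under any alternative. The falls there were -1.32 at AT1G43781, an F-box pseudogene that overlaps AT1G43785, -1.32 at AT1G35560, a TCP transcription factor gene, -1.29 at AT1G42655, -1.17 at AT5G28270 and -0.91 at AT1G37038. Of these 5, AT1G43781 and AT1G37038 kept their calls under all alternatives. In prors1 (LUC) against Col-0 (LUC), the rises were 1.07 at AT3G42140, 0.92 at AT1G40097, 0.90 at AT5G36210 and 0.82 at AT3G43420, of which AT3G42140 and AT3G43420 kept their calls. The falls in prors1 (LUC) were -1.56 at AT1G43171, -1.14 at AT5G28410, -1.12 at AT5G35914 and -0.94 at AT5G30532, of which AT1G43171 and AT5G28410 kept theirs.

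**Figure D4:**
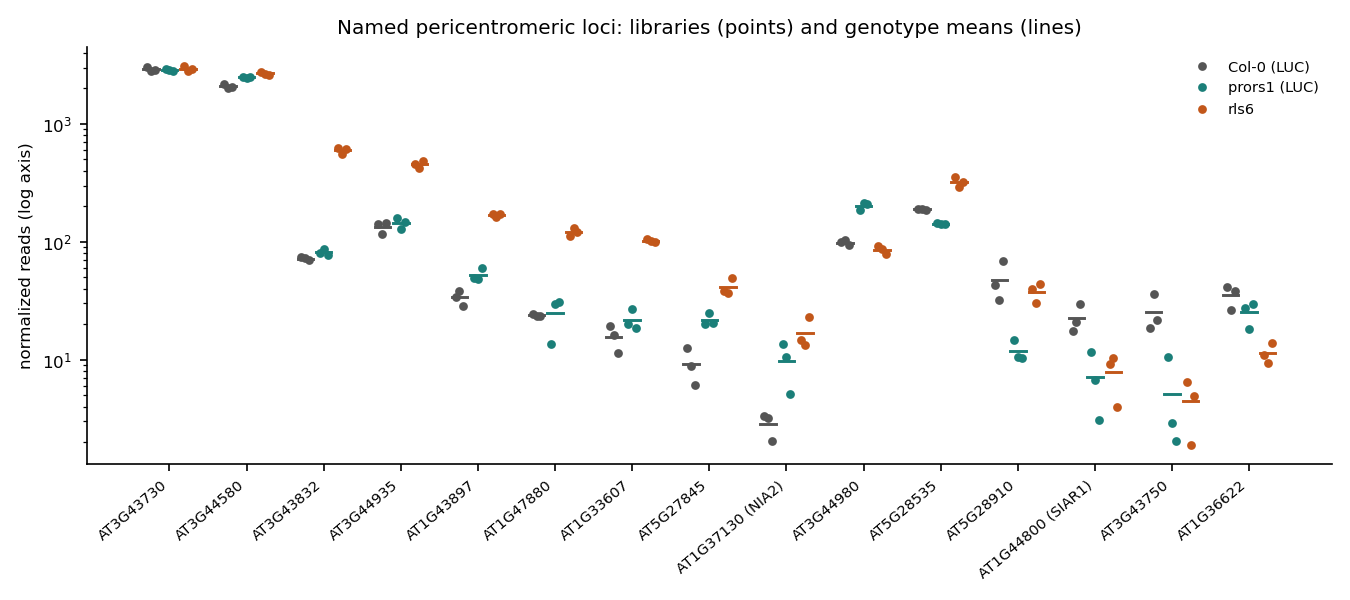
Normalized reads (log axis) of 15 named members in the 9 libraries, as points, with the mean of each genotype as a line. The rls6 libraries of AT3G43832 lie at 557 to 624 against 69.7 to 73.6 in Col-0 (LUC), whereas AT3G43730 is level across the genotypes.

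The loci with the most reads moved little. AT3G43730, a pseudogene (chr3:15633913-15636942), held 3028, 2820 and 2871 normalized reads in the Col-0 (LUC) libraries, 2910, 2857 and 2815 in those of prors1 (LUC) and 3106, 2792 and 2949 in those of rls6. All 3 genotypes overlapped and no comparison was called. AT3G44580, a protein-coding locus that matches a retrotransposon ORF-1 protein (chr3:16160338-16161837), held 2190, 2026 and 2056 in the Col-0 (LUC) libraries, 2494, 2472 and 2519 in those of prors1 (LUC) and 2777, 2645 and 2623 in those of rls6. The genotypes formed 3 separate steps, of which rls6 against Col-0 (LUC) was called (0.36 ± 0.09, limma adjusted p = 0.00508), though not without a trend or with total nuclear reads, and prors1 (LUC) was not (adjusted p = 0.0561). The third strongest on chromosome 3 was AT3G33178, a pseudogene that was not called in any comparison, with means of 936 ± 58.6 (SD, n = 3) for Col-0 (LUC), 823 ± 11.9 for prors1 (LUC) and 845 ± 27.7 for rls6.

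On chromosome 1 the strongest members were AT1G43150, AT1G43060 and AT1G35740. AT1G35740, a transcribed pseudogene of a glucan synthase-like gene, held 458, 524 and 451 in the Col-0 (LUC) libraries, 482, 552 and 475 in those of prors1 (LUC) and 674, 664 and 617 in those of rls6, which was higher than the others (0.45 against Col-0 (LUC), limma adjusted p = 0.00116, not called with total nuclear reads). AT1G43150, a pseudogene, held 797, 791 and 800 in the Col-0 (LUC) libraries, 856, 790 and 799 in those of prors1 (LUC) and 628, 676 and 674 in those of rls6. Its fall in rls6 (-0.27, limma adjusted p = 0.0274) was lost in 8 alternatives and turned to 0.01 with upper-quartile factors over all genes. On chromosome 5, AT5G27606, AT5G34848 and AT5G27947 led and none was called in any comparison, with 573 to 1122 normalized reads per library.

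Split by level in Col-0 (LUC), the members numbered 97 below 10 normalized reads, 653 from 10 to 30, 620 from 30 to 100, and 260 at 100 or more. In prors1 (LUC) against Col-0 (LUC) the counts that rose and fell in these bins were 3 and 0, 7 and 9, 18 and 33, and 15 and 20, with median log2 fold changes of 0.33, -0.02, -0.01 and -0.04. In rls6 against Col-0 (LUC) they were 8 and 0, 19 and 9, 31 and 22, and 19 and 15, with medians of 0.16, -0.10, -0.09 and -0.02. A member of the lowest bin met the level rule only if a mutant library reached the level, which leans toward higher values there. The splits of 3 and 0 and of 8 and 0 in that bin, with medians of 0.33 and 0.16, are therefore a description. The called share by bin was 3.09%, 2.45%, 8.23% and 13.5% for prors1 (LUC), against a background of 14.4%. For rls6 it was 8.25%, 4.29%, 8.55% and 13.1%, against 17.6%. Among the other tested nuclear loci, the same bins had 16.3%, 10.2%, 19.8% and 23.8% for prors1 (LUC). For rls6 those loci had 27.5%, 12.6%, 22.1% and 30.5%. The members were thus called less often than other loci of like level in each bin. The counts of the members moved with single libraries as well. Without Col-0 (LUC) replicate 3, the 33 falls of the bin from 30 to 100 in prors1 (LUC) became 12, and the 20 falls of the highest bin became 9. In rls6 the 22 and 15 falls of the same bins became 12 and 7 without it.

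A split by the Col-0 (LUC) level leans on both comparisons with Col-0 (LUC), because the same values form the bin and the fold change. In rls6 against prors1 (LUC), which does not use Col-0 (LUC), the medians of the 4 bins were -0.11, -0.09, -0.05 and -0.02, with 5 and 0, 28 and 12, 48 and 30, and 30 and 21 that rose and fell. When the bins were formed by the mean over all 9 libraries, the lowest bin had medians of 0.02 in prors1 (LUC), -0.08 in rls6 and -0.14 in rls6 against prors1 (LUC). On single chromosomes the lowest Col-0 (LUC) bin had medians of 0.33, 0.36 and 0.24 for prors1 (LUC), while those of rls6 were 0.22, 0.38 and 0.09, on chromosomes 1, 3 and 5. The medians of that bin on single chromosomes lean on the level rule too.

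**Figure D5:**
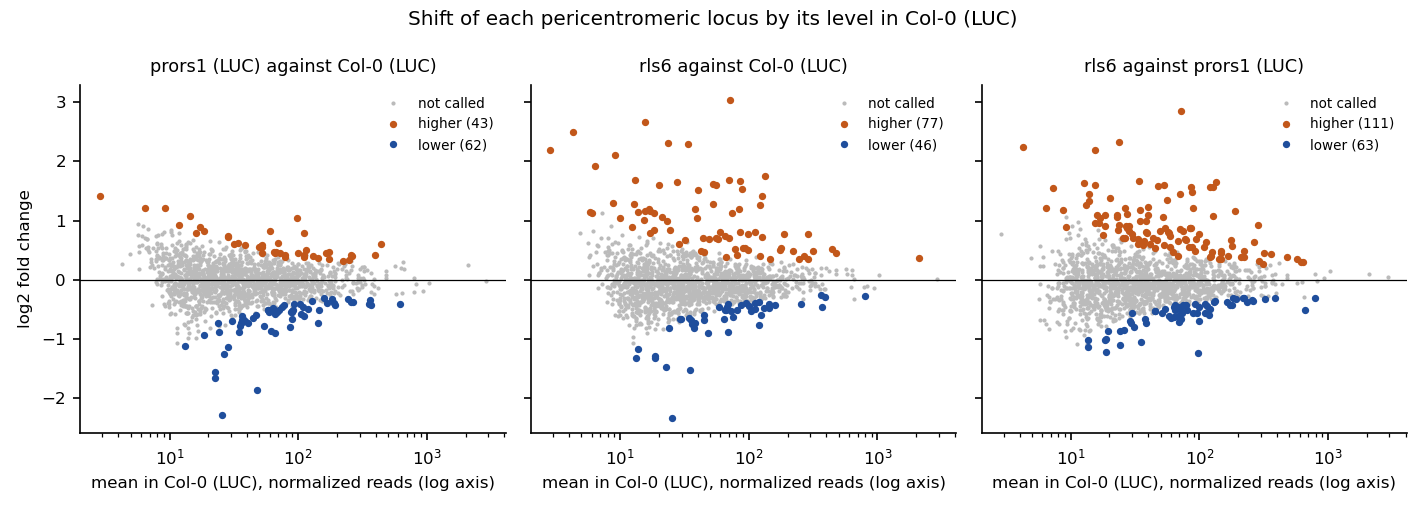
Log2 fold change of each member against its mean in Col-0 (LUC) (log axis, normalized reads), for the 3 comparisons, of which the first and second share the Col-0 (LUC) libraries. Orange points rose and blue points fell; the spread narrows with level, and the largest falls and rises lie below about 200 normalized reads.

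In prors1 (LUC), the members that fell on chromosome 5 came to 7.02%, near the background of 6.63%, and those that rose to 2.03%, below the background of 7.74%. On chromosome 1, 15 members rose and 11 fell in prors1 (LUC) against Col-0 (LUC), 3.30% and 2.42%, on chromosome 3, 17 rose and 13 fell, 2.68% and 2.05%, and on chromosome 5, 11 rose and 38 fell. The medians were 0.02, 0.00 and -0.05. In rls6 against Col-0 (LUC) the counts were 30 and 17, 26 and 14, and 21 and 15, with medians of -0.04, -0.07 and -0.09. In rls6 against prors1 (LUC) they were 36 and 21, 34 and 30, and 41 and 12, with medians of -0.06, -0.07 and -0.06. The 38 falls on chromosome 5 became 8 with DESeq2, 14 without Col-0 (LUC) replicate 3, 22 without replicate 1 of Col-0 (LUC) or replicate 1 or 2 of prors1 (LUC), 23 without prors1 (LUC) replicate 3 and 6 with upper-quartile factors over all genes, where 30 rose. The split on the other chromosomes was not fixed. On chromosome 1 falls outnumbered rises with DESeq2 (0 rose and 6 fell), without a trend (7 and 9), with no filter on low values (3 and 7) and without Col-0 (LUC) replicate 3 (5 and 7), prors1 (LUC) replicate 1 (8 and 12) or prors1 (LUC) replicate 3 (6 and 11). On chromosome 3 they did so without a trend (8 and 10) and with upper-quartile factors over tested loci (15 and 16), and with total nuclear reads they did on all 3 chromosomes. Without Col-0 (LUC) replicate 3, 12 rose and 5 fell on chromosome 3.

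In rls6 against Col-0 (LUC), the 17 falls on chromosome 1 became 8 to 10 without Col-0 (LUC) replicate 1 or 3 or any 1 rls6 library. The 14 on chromosome 3 became 8 or 9 without Col-0 (LUC) replicate 1 or 3 or rls6 replicate 2. The 15 on chromosome 5 became 4 without Col-0 (LUC) replicate 3, 9 without rls6 replicate 1 or 3 and 26 without Col-0 (LUC) replicate 2. For rls6 against prors1 (LUC), the 21 falls on chromosome 1 became 11 to 16 when a prors1 (LUC) or rls6 library was left out, and the 12 on chromosome 5 became 6 without prors1 (LUC) replicate 1 or 3 and 7 without rls6 replicate 3. With upper-quartile factors over tested loci the splits of that comparison turned to 29 and 41 on chromosome 1 and 29 and 49 on chromosome 3, and came to 36 and 33 on chromosome 5. The difference between chromosomes was not tested.

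Of the 38 falls, 11 lay in a window from 10.5 to 11 Mb, which was chosen after the values were seen and so has no test. Over all tested loci, 6.63% fell in prors1 (LUC) against Col-0 (LUC). Summed over its 68 members, the window held 4922, 4783 and 4929 normalized reads in the Col-0 (LUC) libraries, 4061, 4406 and 4300 in those of prors1 (LUC) and 4859, 4777 and 4890 in those of rls6. The prors1 (LUC) libraries were lower than all others, and rls6 overlapped with Col-0 (LUC). As a share of the chromosome 5 member reads, which needs no size factor, the window took 14.2%, 14.0% and 14.4% in the Col-0 (LUC) libraries, 12.2%, 13.1% and 12.9% in those of prors1 (LUC) and 14.1%, 14.0% and 14.2% in those of rls6. The rest of the interval held 29509 ± 168 normalized reads (SD, n = 3) for Col-0 (LUC), 29255 ± 103 for prors1 (LUC) and 29514 ± 162 for rls6. By library these were 29703, 29414 and 29410, then 29301, 29328 and 29137, then 29688, 29370 and 29482. Outside the window too, the prors1 (LUC) libraries were thus lower than all others, by a smaller step.

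Within the window 53 of the 68 members were below 0 in prors1 (LUC) against Col-0 (LUC), as were 2330 of all 4766 tested loci. The median log2 fold change there was -0.26, and 0 rose. In rls6 against Col-0 (LUC) 2 rose and 3 fell with a median of -0.08, and in rls6 against prors1 (LUC) 8 rose and 1 fell with a median of 0.13. Over all tested loci the shares that rose and fell were, in the same order, 7.74% and 6.63%, 12.7% and 4.95%, and 11.7% and 5.16%. The 11 falls became 1 with DESeq2, 3 without Col-0 (LUC) replicate 3, 5 without prors1 (LUC) replicate 1, 6 without Col-0 (LUC) replicate 1 or rls6 replicate 3, and 7 without prors1 (LUC) replicate 3 or rls6 replicate 1 or 2. With upper-quartile factors over all genes 3 rose and 1 fell, with a median of -0.07. One locus, AT5G28910, kept its call in every alternative. The window was mostly of pseudogenes, with 56 of its 68 members in the 2 pseudogene classes, and AT5G28672, one of them, is an example, with 66.1, 62.7 and 76.9 normalized reads in the Col-0 (LUC) libraries, 39.99, 48.2 and 51.3 in those of prors1 (LUC) and 67.8, 83.9 and 69.4 in those of rls6.

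At 3 members, all on chromosome 5 and singled out after their values were seen, prors1 (LUC) was called lower and rls6 higher than Col-0 (LUC). AT5G28535, a pseudogene in the window, held 189, 190 and 187 in the Col-0 (LUC) libraries, 145, 143 and 141 in those of prors1 (LUC) and 354, 293 and 321 in those of rls6. The genotypes did not overlap, at -0.40 in prors1 (LUC) (limma adjusted p = 0.00853) and 0.77 in rls6 (adjusted p = 3.14e-06), and the fall was lost with DESeq2, without a trend and with upper-quartile factors over all genes. AT5G28143, a transcribed pseudogene of a topoisomerase II gene, held 92.0, 82.7 and 93.3 in the Col-0 (LUC) libraries, 54.7, 46.3 and 68.7 in those of prors1 (LUC) and 136, 123 and 132 in those of rls6. It too formed 3 separate steps, at -0.67 (limma adjusted p = 0.00192) and 0.54 (adjusted p = 0.00772), the rise not called without a trend or with total nuclear reads. AT5G35332, a pseudogene, fell in prors1 (LUC) by 0.36 on the log2 scale (limma adjusted p = 0.0489), a call lost in 12 alternatives, and rose in rls6 by 0.71. The direct difference between the mutants, with rls6 higher, passed its test at each of them, with 1.17 at AT5G28535 (adjusted p = 7.37e-09), 1.21 at AT5G28143 (adjusted p = 7.15e-07) and 1.07 at AT5G35332.

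Repeated sequence was set beside the calls. Of the 381 members with under 50% of windows found once, 7 rose and 4 fell in rls6 against Col-0 (LUC), 2.89% of them, and of the 445 with at least 95%, 35 rose and 18 fell, 11.9%, against 17.6% of all tested loci. Among the other tested nuclear loci the called shares were 8.09% of 556 and 29.002% of 1293. The 4 and 18 falls became 1 and 10 without Col-0 (LUC) replicate 3, and the 7 rises became 11 without Col-0 (LUC) replicate 2. AT5G35915, a transcribed pseudogene of a Myb/SANT gene with 26.7% of windows found once, is one of the 7, with 11.7, 11.2 and 16.4 in the Col-0 (LUC) libraries, 13.7, 17.3 and 22.6 in those of prors1 (LUC) and 47.6, 35.8 and 48.6 in those of rls6. It was chosen after its values were seen, and it rose in rls6 by 1.68 (limma adjusted p = 1.64e-05) without overlap. The part of shared sequence in these counts was not tested.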

How the data were processed

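Small RNA libraries of 3 genotypes, 3 per genotype, were grouped by their titles. The submitters' processing notes name the TAIR10 build, with featureCounts, Bowtie2, Trimmomatic and FastQC as tools. In the sources used here, their versions and settings, strand use and the handling of reads with several places of origin are not given. The deposited signal values are reads per gene that the authors divided by a size factor per library, here called normalized reads. All were whole multiples of a per-library step within 1e-06, so 100% of values gave back whole reads, which summed to 611238 to 702303 per library, with size factors of 0.950 to 1.24. Of these reads, 15.8% to 20.0% lay in the members, and 2.85% to 5.01% over organelle genes. Replicate pairs differed by more than counting noise (chi-square per degree of freedom 1.49 to 7.13). The authors' deposited log2 fold changes, their standard errors and Wald score, their p-values and their base mean were not used.

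Values were tested in R 4.3.3 with limma 3.58.1, its trend option on, as log2(normalized reads + 1). The fit took all 9 libraries, had genotype as its only term and covered the 4766 loci that reached 10 normalized reads in 3 or more libraries, the level that also chose the members. P-values were Benjamini-Hochberg adjusted over these loci with a threshold of 0.05. The fit was also run on simulated counts with the same dispersion at every locus and no library effects beyond depth. The real replicate pairs differed unevenly, so that run does not give the error rate of these calls. No test was made over the members as a set, since the members, lists and windows were chosen with earlier results of these data known. Alternatives were a replicate block, each library left out, other pseudocounts, filters, scalings and bins, limma without a trend, members that overlap another gene left out, and edgeR 4.0.16 and DESeq2 1.42.0 on the recovered reads.

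Named loci were, in each comparison, the 8 largest and 8 smallest called log2 fold changes, and on each chromosome the 3 members with most reads, the called extremes and the loci at the edge of the level rule. Loci outside the rule are said to be chosen after their values were seen. Coordinates, classes and sequences are those of RefSeq TAIR10.1, in which 37051 of the identifiers were found, and 24-base windows were counted on both strands of that genome. No column of another series was used.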

Additional observations from a re-analysis of the deposited data

How the results depend on the processing

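Counts are given as members higher and lower, for prors1 (LUC) against Col-0 (LUC), rls6 against Col-0 (LUC), and rls6 against prors1 (LUC), where 43 and 62, 77 and 46, and 111 and 63 were called, with median log2 fold changes of -0.01, -0.07 and -0.06. DESeq2 called 13 and 17, 61 and 12, and 76 and 20, and edgeR 40 and 65, 81 and 47, and 113 and 60. With no filter on low values, 21 and 22 were called in the first of these, 21 lower in the middle one and 32 lower in the last one. Limma without a trend gave 23 and 32 in the first and 34 lower in the last one. Upper-quartile factors over tested loci gave medians of -0.025, -0.15 and -0.13, with 125 lower in the middle one and 123 in the last one. Upper-quartile factors over all genes, whose upper quartile is 2 to 3 reads, gave medians of 0.17, 0.21 and 0.028, with 109 and 12, 226 and 9, and 20 lower in the last one. Total nuclear reads gave medians of -0.12, -0.16 and -0.046, with 11 higher in the first, and 87 and 33 lower in the middle and last. Median-of-ratios factors without the members, added after seeing the data, gave medians of -0.086 in rls6 and -0.080 in rls6 against prors1 (LUC). With 1 library left out, 24 to 58 were higher and 26 to 59 lower in prors1 (LUC), with medians of -0.011 to 0.0086. In rls6, 62 to 81 were higher and 22 to 60 lower, with medians of -0.083 to -0.054. In rls6 against prors1 (LUC), 82 to 119 were higher and 39 to 69 lower, with medians of -0.07 to -0.05. With bins by the mean over all 9 libraries, the medians of members below 10 were 0.019, -0.079 and -0.14, those from 30 to 100 were 0.0021 in prors1 (LUC) and -0.071 in rls6, and those at 100 or more were -0.014 and 0.011. AT1G43150 in rls6 turned from -0.27 to 0.012 with upper-quartile factors over all genes. The cause of these changes was not tested. Of the called members, 18 of 105, 54 of 123 and 75 of 174 kept their call under every alternative.

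Labels give the genotypes the same replicate numbers, but nothing says that a number marks a shared batch. Deviations of same-numbered libraries correlated weakly, by -0.018 to 0.153, yet 8 of 9 libraries correlated best with their own number. Whether the numbers pair the libraries therefore cannot be told, and the main fit did not use them. With the replicate number as a block, 57 and 78, 83 and 70, and 126 and 79 were called. At these depths a member near 10 normalized reads carries a large counting error, and small shifts there were not detectable.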
